A study of Mus musculus with 4 samples.

Results

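Microexons of 30 nt or less were examined among the cassette exons measured in mouse embryonic cortex with and without *Qk*. The members were all cassette events whose alternative exon is at most 30 nt long, whatever their inclusion. They were 724 of the 16034 cassette events, and they fall on 671 exons of 566 genes. The cortices were taken at E14.5. The 2 control samples are labelled wild type, and the paper describes them as Qk fl/fl littermates of the *Qk* cKO embryos. The 2 *Qk* cKO samples carry the same floxed *Qk* together with a *Nestin*-Cre transgene, which is active in neural progenitor cells and their progeny. Cells outside this lineage keep an intact *Qk*, and a bulk sample cannot tell a change in splicing per cell from a change in the share of cells of a type.

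A microexon is an exon of only a few codons. Neurons include many of them, and the splicing factor Srrm4 promotes this neuronal inclusion, while Ptbp1 holds many neuronal exons back in progenitor cells. *Qk* encodes Qki proteins, RNA-binding proteins expressed in neural progenitors that bind introns next to alternative exons. The microexons known in neurons are mostly in frame and add a few residues to proteins of the cytoskeleton, adhesion, vesicle traffic and transcription.

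Inclusion is the mean of the tags on the 2 inclusion junctions divided by that mean plus the tags on the skipping junction. In some events most inclusion tags lay on a single junction, among them exons of *Prom1*, *Rps24*, *Mta1*, *Nnat*, *Dctn1* and *Eif4g3*. Tags are the counting units of Quantas, and their estimated numbers can be fractional. The inclusion difference is the inclusion in *Qk* cKO minus that in control, with tags summed over the 2 embryos of a genotype. An event was tested when its coverage, the lowest marginal total of its junction tags (inclusion or skipping, control or *Qk* cKO), was at least 20. Changes were called with Fisher's exact test on the summed isoform tags at p below 0.01 and FDR below 0.1, adjusted over all 4600 cassette events tested. Fisher's test treats each tag as an independent observation, without regard to how embryos differ. An edgeR quasi-likelihood test of the interaction of isoform and genotype, which estimates that variation from the replicates, is given beside it with the same thresholds.

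Of the 724 events, 332 were tested (45.9%), on 323 exons of 271 genes, against 28.7% of all cassette events. Among the events not tested, 123 had under 20 inclusion tags alone, 121 had under 20 skipping tags alone and 147 had under 20 of both, and 75 of these last had no junction tag in any sample. A further event failed only in the sum of a genotype. Tested microexons were included at intermediate levels in most cases. In control, 249 had an inclusion between 0.1 and 0.9, 54 were below 0.1 and 29 were above 0.9.

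The sequences of most exons with the largest differences in each direction, and of those called also by the edgeR interaction test, are printed here to show how short and how varied these exons are. The exon is in capitals, and the lower case letters are the ends of the neighbouring exons in an annotated spliced transcript (GENCODE release M21, mm10, 5′ to 3′ on the gene's strand). For *Tpd52l1* the annotated neighbours were not those of the event, so only the exon is given. The first set was more included in *Qk* cKO.
*Arhgef6*, 21 nt: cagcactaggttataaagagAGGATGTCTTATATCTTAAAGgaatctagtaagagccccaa
*Tead1*, 12 nt: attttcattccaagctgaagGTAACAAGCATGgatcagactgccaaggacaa
*Nrxn2*, 24 nt: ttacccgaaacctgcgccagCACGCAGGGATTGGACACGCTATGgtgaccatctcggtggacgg
*Pcnt*, 21 nt: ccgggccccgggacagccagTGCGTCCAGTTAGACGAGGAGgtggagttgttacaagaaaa
*Mdm1*, 30 nt: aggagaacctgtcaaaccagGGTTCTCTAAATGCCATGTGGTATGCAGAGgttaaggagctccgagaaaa
*Mfsd6*, 25 nt: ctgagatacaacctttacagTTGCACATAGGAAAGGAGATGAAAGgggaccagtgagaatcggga
*Prom1*, 24 nt: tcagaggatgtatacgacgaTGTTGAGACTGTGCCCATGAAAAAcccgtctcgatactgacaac
*Nrcam*, 30 nt: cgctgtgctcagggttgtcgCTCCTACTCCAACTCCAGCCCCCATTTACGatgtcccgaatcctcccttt
*Flna*, 24 nt: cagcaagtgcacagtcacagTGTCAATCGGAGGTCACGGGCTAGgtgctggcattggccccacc
*Dctn1*, 21 nt: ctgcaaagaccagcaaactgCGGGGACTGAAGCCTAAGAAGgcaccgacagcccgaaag
*Dctn1*, 18 nt: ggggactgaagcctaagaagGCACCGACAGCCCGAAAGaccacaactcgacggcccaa
The next set was less included in *Qk* cKO.
*Tpd52l1*, 15 nt: GTCTCACTCTTTTGG
*Acap2*, 21 nt: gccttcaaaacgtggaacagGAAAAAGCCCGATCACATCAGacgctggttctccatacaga
*Pcgf6*, 18 nt: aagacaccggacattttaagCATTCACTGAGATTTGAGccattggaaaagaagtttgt
*Pclo*, 27 nt: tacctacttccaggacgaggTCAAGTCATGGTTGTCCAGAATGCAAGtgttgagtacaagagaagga
*Incenp*, 12 nt: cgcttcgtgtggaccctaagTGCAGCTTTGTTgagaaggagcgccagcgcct
*Trim26*, 18 nt: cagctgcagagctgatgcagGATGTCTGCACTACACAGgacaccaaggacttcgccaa
*Prom1*, 27 nt: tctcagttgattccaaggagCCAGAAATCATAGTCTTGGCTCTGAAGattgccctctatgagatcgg
*Erc2*, 24 nt: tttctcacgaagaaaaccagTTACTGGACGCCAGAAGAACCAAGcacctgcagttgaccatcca
*Gpatch8*, 18 nt: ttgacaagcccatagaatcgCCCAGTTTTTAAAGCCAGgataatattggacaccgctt
*Cltc*, 21 nt: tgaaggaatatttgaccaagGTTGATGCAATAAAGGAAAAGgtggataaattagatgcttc
The last pair, both in *Rps24*, was called in opposite directions, the 18 nt exon higher and the 20 nt exon lower, on partly the same tags.
*Rps24*, 18 nt: AAATGAAATACCTAGCAG
*Rps24*, 20 nt: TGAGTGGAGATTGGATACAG
The *Dctn1* exons are neighbours in the annotated transcript, so the downstream letters of the first are those of the second, and the neighbours printed are not both those of the events.

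In *Qk* cKO, microexons changed in both directions. Of the 332 tested events, 50 were called, 27 with higher and 23 with lower inclusion in *Qk* cKO, on 49 exons of 42 genes. The called share was 15.1%, against 9.28% of all tested cassette events (4.11% higher and 5.17% lower). With a difference of at least 0.1, 33 events were called (9.94%), against 4.85% of all, and they divided into 20 higher and 13 lower where the whole table had 2.22% higher and 2.63% lower. In 48 of the 50 called events both *Qk* cKO embryos lay on one side of both controls. Some called events are not separate tests. The overlapping exons of *Ewsr1*, and those of *Macf1*, have identical isoform tags and therefore the same p, and pairs in *Rps24*, *Dctn1* and *Eif4g3* share part of their tags. The separation of the genotypes alone was common, in 155 of the 332 microexons (46.7%) and in 38.5% of all tested events. The edgeR interaction test called 14 microexons (4.22%), against 1.59% of all tested events, and each of the 14 was also called by Fisher's test.

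**Figure D1:**
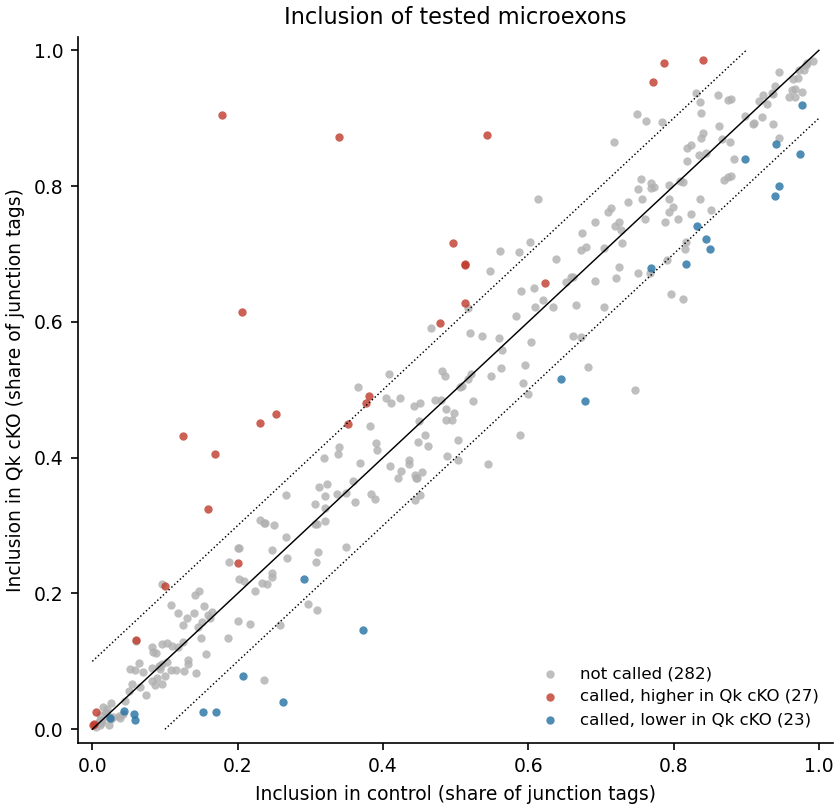
Inclusion in control (x axis) against inclusion in *Qk* cKO (y axis) of the 332 tested microexon events, as shares of junction tags summed per genotype. Each point is an event, the solid line marks equal inclusion and the dotted lines a difference of 0.1. The 27 called events with higher inclusion (red) reach farther from the line than the 23 with lower inclusion (blue).

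The largest differences were increases. A difference of at least 0.2 was called in 11 events, 9 higher and 2 lower. The 9 include *Arhgef6*, with few tags, and *Mfsd6*, where the genotypes overlapped. The largest decrease of all tested microexons, -0.246, was not called. The share of all tested cassette events at this limit is not given here, so the count is not read as a trait of microexons. The median absolute difference of tested microexons was 0.0360, against 0.0276 over all tested events, and the median signed difference was 0.00138 against -0.000646. Between the embryos of 1 genotype, the median gap in inclusion of a tested microexon was 0.0372 in control and 0.0326 in *Qk* cKO. Over all tested events the gaps were 0.0359 and 0.0338. The difference between genotypes uses tags summed over 2 embryos and the gap uses single embryos, so their sizes are not like for like.

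*Arhgef6* encodes a guanine nucleotide exchange factor for Rac and Cdc42, and its 21 nt exon (chrX:57241806-57241826, minus strand, exon 17 of 22, coding) had the largest difference of all tested microexons. Control replicates 1 and 2 had an inclusion of 8.01e-06 and 0.417, and *Qk* cKO replicates 1 and 2 of 0.852 and 1.0. Both *Qk* cKO embryos lay above both controls, but the event had between 7.5 and 16 tags per sample and the controls differed widely. The difference was 0.726 (Fisher FDR 5.65e-05, edgeR interaction FDR 0.160).

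*Tead1*, a transcription factor of the Hippo pathway, has a 12 nt exon (chr7:112856053-112856064, plus strand, exon 6 of 14) that adds 4 codons. Inclusion was 0.189 and 0.217 in control and 0.547 and 0.683 in *Qk* cKO. The groups did not overlap, and the difference of 0.408 passed both tests (Fisher FDR 1.04e-06, edgeR interaction FDR 0.0290). *Nrxn2*, a presynaptic adhesion molecule, has a 24 nt exon (chr19:6463824-6463847, plus strand, exon 6 of 20). This exon went from 0.490 and 0.593 in control to 0.918 and 0.831 in *Qk* cKO. All 4 samples had between 141 and 152 tags, and the difference again exceeded the spread between embryos (Fisher FDR 5.92e-17, edgeR interaction FDR 0.000805).

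*Pcnt* encodes pericentrin, a scaffold of the centrosome. Its 21 nt exon (chr10:76403624-76403644, minus strand, exon 21 of 42) was included at 0.175 and 0.0591 in control and at 0.454 and 0.411 in *Qk* cKO. *Mdm1* encodes a microtubule-binding protein of centrioles, and its 30 nt exon (chr10:118156834-118156863, plus strand, exon 8 of 15) went from 0.236 and 0.225 to 0.522 and 0.400. In both genes the groups stood apart, with differences of 0.307 and 0.222. Both were called by Fisher's test (FDR 0.000402 and 0.000130) and neither by the edgeR interaction test (FDR 0.142 and 0.152).

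*Slc12a7*, a potassium-chloride cotransporter, has a 15 nt exon (chr13:73810694-73810708, plus strand) with inclusion of 0.20 and 0.14 in control and 0.397 and 0.418 in *Qk* cKO. The groups did not overlap (difference 0.235, Fisher FDR 0.000889, edgeR interaction FDR 0.170). *Mfsd6*, a membrane transporter family member, has a 25 nt exon (chr1:52658699-52658723, minus strand), the single length that is not a multiple of 3 among those called with a difference of at least 0.1. Its inclusion was 0.300 and 0.758 in control and 0.616 and 0.783 in *Qk* cKO, so the groups overlapped. The difference of 0.219 (Fisher FDR 0.0594, edgeR interaction FDR 0.679) became -0.043 without control replicate 1, 0.416 without control replicate 2 and 0.12 without *Qk* cKO replicate 2.

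Among the exons with lower inclusion, *Acap2*, which encodes a GTPase-activating protein for Arf6, had close values in the embryos of each group. Its 21 nt exon (chr16:31122621-31122641, minus strand, exon 11 of 24) was included at 0.254 and 0.270 in control and at 0.0432 and 0.0372 in *Qk* cKO. Inclusion fell by 0.222, far beyond the spread of either group (Fisher FDR 7.06e-05, edgeR interaction FDR 0.0424). *Incenp*, a subunit of the chromosomal passenger complex in mitosis, also had a lower exon, of 12 nt (chr19:9883192-9883203, minus strand, exon 10 of 18). Inclusion was 0.153 and 0.189 in control and 0.0338 and 0.0145 in *Qk* cKO (Fisher FDR 7.03e-09, edgeR interaction FDR 0.00178).

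*Tpd52l1*, of the tumor protein D52 family, had the largest decrease among called events, at its 15 nt exon (chr10:31343012-31343026, minus strand). Inclusion was 0.306 and 0.455 in control and 0.152 and 0.143 in *Qk* cKO, on between 17.2 and 28 tags per sample (Fisher FDR 0.0629, edgeR interaction FDR 0.505). Its upstream junction had 12.3 and 15 tags in control and 5.1 and 8 in *Qk* cKO. Its downstream junction had only 4.2 and 5 against 0.12 and 0. *Pcgf6*, a Polycomb group ring finger protein, has an 18 nt exon (chr19:47042122-47042139, minus strand) with inclusion of 0.933 and 0.544 in control and 0.477 and 0.491 in *Qk* cKO. Control replicate 1, with 15.0 tags, lay far above the other 3 samples (difference -0.194, Fisher FDR 0.0338, edgeR interaction FDR 0.432). Without it the difference was -0.060 and the call was lost, and without control replicate 2 the difference was -0.449.

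*Pclo* and *Erc2* both encode proteins of the presynaptic active zone. The 27 nt exon of *Pclo* (chr5:14778539-14778565, plus strand, exon 16 of 25) was included at 0.932 and 0.950 in control and at 0.792 and 0.780 in *Qk* cKO. The 24 nt exon of *Erc2* (chr14:27776159-27776182, plus strand) had 0.804 and 0.833 against 0.640 and 0.755. Neither gene's groups overlapped, and the calls rest on Fisher's test (FDR 0.0251 and 0.0864), not on the edgeR interaction test (FDR 0.227 and 0.543). Without *Qk* cKO replicate 1 the *Erc2* difference went from -0.132 to -0.0625 and was not called. *Trim26*, of the tripartite motif family of ubiquitin ligases, had 0.962 and 0.932 in control and 0.739 and 0.856 in *Qk* cKO at its 18 nt exon (chr17:36854284-36854301, plus strand, exon 6 of 10). The difference of -0.144 was called by Fisher's test (FDR 0.00893, edgeR interaction FDR 0.209), and without *Qk* cKO replicate 1 it was -0.0886 and not called.

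*Prom1*, which encodes the apical membrane protein prominin-1 of neural progenitors, carried a microexon called in each direction. The upstream 27 nt exon (chr5:44058626-44058652, minus strand) went from 0.867 and 0.836 in control to 0.767 and 0.656 in *Qk* cKO. The downstream 24 nt exon (chr5:44001270-44001293) went from 0.265 and 0.239 to 0.448 and 0.483. At this exon the upstream junction had 41.0 and 30 tags in control and 73.1 and 66.7 in *Qk* cKO. The downstream junction had only 3.0 and 2 against 4.1 and 1.7, so the rise rests on the upstream junction. The differences were -0.143 and 0.211, and the groups overlapped at neither exon (Fisher FDR 0.0253 and 9.95e-05, edgeR interaction FDR 0.354 and 0.0969). Without *Qk* cKO replicate 2 the first was -0.0836 and not called.

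**Figure D2:**
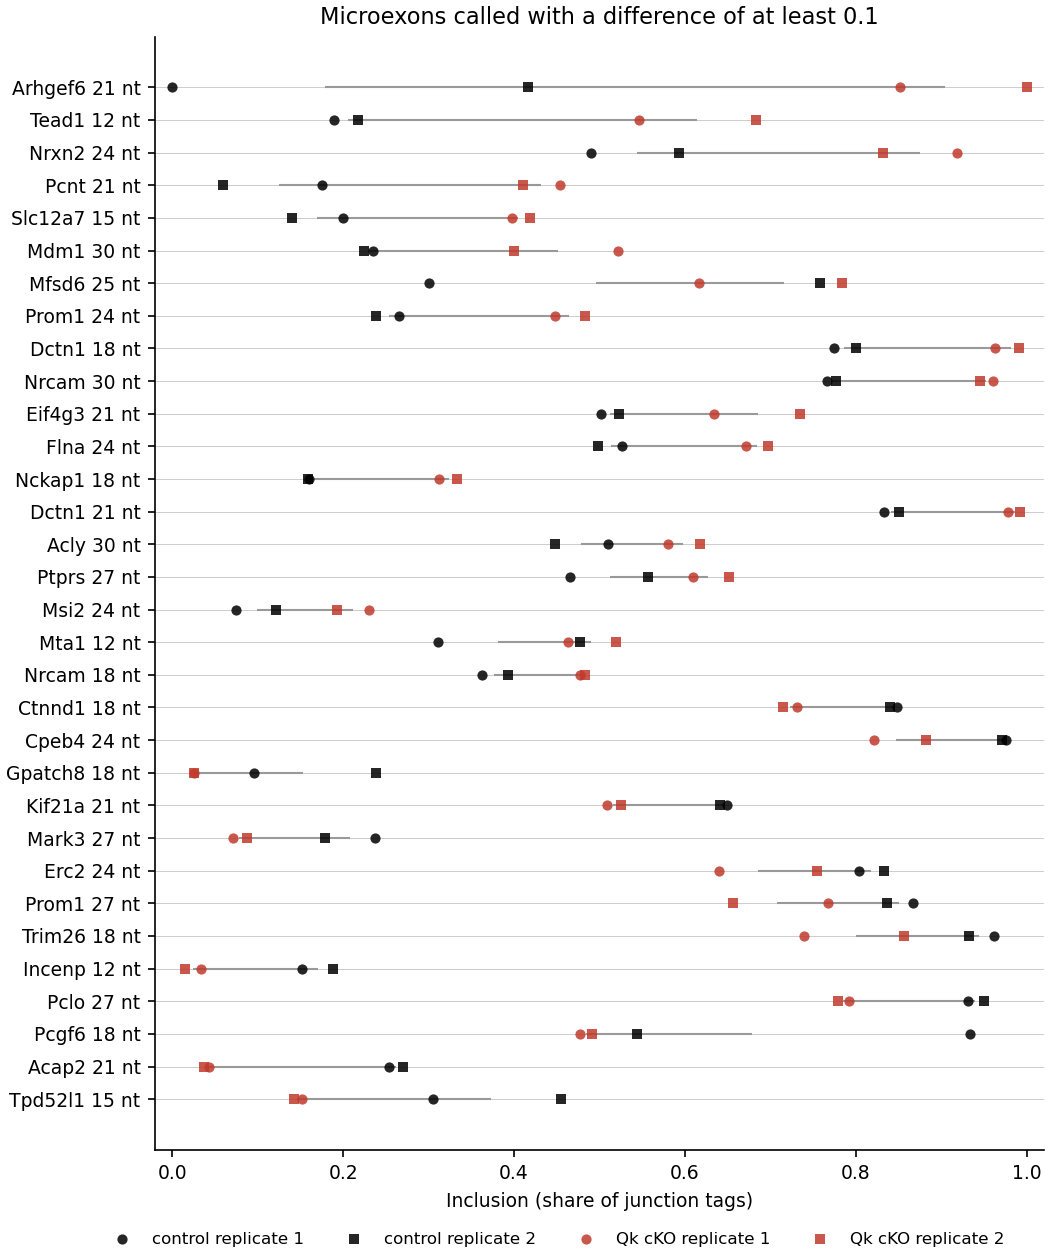
Inclusion (x axis, share of junction tags) in each of the 4 samples for 32 of the 33 microexon events called with a difference of at least 0.1, ordered from the largest increase to the largest decrease. Black symbols are control and red symbols *Qk* cKO embryos (circle replicate 1, square replicate 2), and the grey bar joins the values from summed tags. *Eif4g3* appears for the event with the shorter upstream intron. In *Mfsd6* and *Mta1* the groups overlap.

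*Clasp1*, a protein of growing microtubule ends, likewise had both a higher and a lower exon, each of 24 nt. One (chr1:118512705-118512728) was included at 0.335 and 0.371 in control and 0.473 and 0.426 in *Qk* cKO, and the other (chr1:118541675-118541698) at 0.880 and 0.918 against 0.821 and 0.860. The changes were small and passed Fisher's test (FDR 0.0168 and 0.0428, edgeR interaction FDR 0.507 and 0.458). In *Eif4g3*, a scaffold protein of translation initiation, the same 21 nt exon (chr4:138095909-138095929) was called in opposite directions with different upstream exons. Both events hold the same isoform inclusion tags and the same downstream junction tags, so they are not separate measurements of the exon, and they differ in their skipping and upstream junction tags. With the upstream intron of 8343 nt, inclusion was 0.502 and 0.523 in control and 0.634 and 0.734 in *Qk* cKO. With that of 12920 nt it was 0.293 and 0.290 against 0.188 and 0.256. Both calls were by Fisher's test (FDR 0.0786 and 0.0508, edgeR interaction FDR 0.465 and 0.543).

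*Rps24* encodes a protein of the small ribosomal subunit and has alternative microexons near the end of its coding sequence. The 18 nt exon (chr14:24494052-24494069, plus strand, partly coding) was rare, at 0.00485 and 0.00550 in control and 0.0269 and 0.0245 in *Qk* cKO. The 20 nt exon (chr14:24495430-24495449, annotated in the 3′ UTR) went from 0.978 and 0.976 to 0.914 and 0.927. The skipping tags of the 18 nt event are the upstream inclusion tags of the 20 nt event, so the events are not separate evidence and their opposite directions are partly built in. The changes were small, measured on at least 2016 tags per sample, and the events had the smallest FDR of all microexons in both tests (Fisher FDR 3.96e-43 and 8.67e-39, edgeR interaction FDR 2.27e-05 for both). For the 18 nt exon nearly all of these were skipping tags. Its upstream junction had 36 and 32 tags in control and 125 and 104 in *Qk* cKO. Its downstream junction had only 3 and 3 against 7 and 3. Ribosomal protein genes have near-identical pseudogene copies, and how the reads shared with such copies were placed was not examined here. *Cltc*, the clathrin heavy chain, likewise had a rare exon, with most tags on the skipping junction. Its 21 nt exon (chr11:86701061-86701081, minus strand) was included at 0.0681 and 0.0503 in control and 0.00895 and 0.0178 in *Qk* cKO (Fisher FDR 1.68e-11, edgeR interaction FDR 0.00159).

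Genes of the cytoskeleton, adhesion and vesicle traffic held most of the called microexons. Because these groups were drawn up with earlier results known, neither this count nor their shares carry weight beside the share of 15.1% over all tested microexons. In the microtubule and centrosome group, 11 of 30 tested events were called, 7 higher and 4 lower. Besides *Pcnt* and *Mdm1*, the dynactin subunit gene *Dctn1* had higher inclusion of 2 exons. Its 21 nt exon (chr6:83183936-83183956) rose from 0.833 and 0.851 in control to 0.978 and 0.992 (Fisher FDR 0.00415, edgeR interaction FDR 0.0290). Its 18 nt exon (chr6:83186428-83186445) rose from 0.775 and 0.80 to 0.963 and 0.991 (Fisher FDR 0.00185, edgeR interaction FDR 0.0263). Both events share their skipping tags and are not separate evidence. Calculated from isoform tags in place of junction tags, the differences were 0.078 and 0.089, below 0.1, where junction tags gave 0.145 and 0.195. The kinesin gene *Kif21a* (21 nt) had lower inclusion, 0.650 and 0.641 in control and 0.509 and 0.525 in *Qk* cKO, as did the microtubule-regulating kinase gene *Mark3* (27 nt), 0.238 and 0.178 against 0.0711 and 0.0874. These decreases were called by Fisher's test (FDR 0.000227 and 7.71e-05) and not by the edgeR interaction test (FDR 0.281 and 0.170). In *Macf1*, a crosslinker of microtubules and actin, 2 overlapping exons of 15 nt and 12 nt had an inclusion below 0.01 in every sample although both were called, on the same isoform tags.

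In the adhesion and receptor group, 8 of 37 tested events were called, 6 higher and 2 lower. The adhesion molecule gene *Nrcam* was called at both a 30 nt and an 18 nt exon. The 30 nt exon (chr12:44566840-44566869, plus strand, exon 18 of 31) had 0.766 and 0.777 in control and 0.960 and 0.946 in *Qk* cKO, with the embryos of each group close together (Fisher FDR 1.86e-17, edgeR interaction FDR 0.000208). The 18 nt exon (chr12:44535057-44535074) had 0.363 and 0.393 against 0.478 and 0.483 (Fisher FDR 0.0461, edgeR interaction FDR 0.603). The receptor tyrosine phosphatase gene *Ptprs* was higher by 0.115 at a 27 nt exon, and *Ctnnd1*, which encodes p120-catenin, fell by 0.122 at an 18 nt exon (Fisher FDR 0.0716 and 0.000627, edgeR interaction FDR 0.567 and 0.154). Without control replicate 1 the *Ptprs* difference was 0.070 and not called.

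In the group of actin and its regulators, 4 of 13 tested events were called, 3 higher and 1 lower. The microexon of *Flna*, an actin crosslinker, was among the few called by both tests (Fisher FDR 6.28e-12, edgeR interaction FDR 0.0259), with a difference of 0.171. *Nckap1* and *Abi1* encode partners in the WAVE complex, which drives actin branching. The 18 nt exon of *Nckap1* was included at 0.160 and 0.159 in control and 0.312 and 0.333 in *Qk* cKO, and the 15 nt exon of *Abi1* at 0.714 and 0.823 against 0.675 and 0.682. The first was higher and the second lower by Fisher's test (FDR 0.000426 and 0.0563, edgeR interaction FDR 0.139 and 0.557).

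In the vesicle and membrane traffic group, 5 of 19 tested events were called, and all 5 were lower: *Tpd52l1*, *Acap2*, *Pclo*, *Erc2* and the 12 nt exon of *Agap1*, an Arf GTPase-activating protein gene (difference -0.0795). The 14 events of this group not called had differences from -0.0448 to 0.118, and the median over the 19 was -0.0215. *Cltc* and the 30 nt exon of the calsyntenin gene *Clstn1*, outside this group and named after their values were seen, were also lower. In the transcription and chromatin group, 5 of 11 were called, *Tead1* and the NuRD subunit gene *Mta1* higher and *Pcgf6*, *Trim26* and *Gpatch8* lower. The 12 nt exon of *Mta1* had 0.312 and 0.477 in control and 0.463 and 0.520 in *Qk* cKO, so the groups overlapped (difference 0.109, Fisher FDR 0.0207, edgeR interaction FDR 0.557). At this exon the upstream junction had only 4.2 and 9 tags in control and 3.8 and 3.6 in *Qk* cKO. The downstream junction had 96.7 and 104 against 116 and 119, so the inclusion of this exon rests almost wholly on the downstream junction. Without control replicate 1 its difference was 0.013 and not called, and without control replicate 2 it was 0.179. In *Gpatch8* the 18 nt exon, annotated in a non-coding transcript, went from 0.0959 and 0.238 in control to 0.0253 and 0.0254 (Fisher FDR 0.000148, edgeR interaction FDR 0.0708). Its difference of -0.128 was -0.0705 and not called without control replicate 2, and -0.213 without control replicate 1. In the RNA and translation group 4 of 6 were called, the RNA-binding protein gene *Msi2* (0.112) higher, *Cpeb4*, a regulator of polyadenylation and translation, lower (-0.126), and *Eif4g3* in each direction. In the metabolism and transport group the 3 tested events were all higher, with *Acly*, the enzyme that makes cytosolic acetyl-CoA, going from 0.510 and 0.449 to 0.581 and 0.617 at a 30 nt exon. That change was called by Fisher's test (FDR 2.58e-09, edgeR interaction FDR 0.154).

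Genes known to carry neuronal microexons held called and uncalled events. Of 84 such genes listed, 56 held a microexon event here and 83 events in 50 genes were tested. In 15 of these genes 20 events were called (24.1%), 12 higher and 8 lower, against 15.1% of all tested microexons and 9.28% of all tested cassette events. This list too was drawn up with earlier results known, so its share carries no weight beside the others. Of the 63 not called, 46 had a difference smaller than 0.05 in either direction and 5 reached 0.1. The median signed difference over the 83 was -0.00154. The 21 nt exon of *Eif4g1*, a translation initiation scaffold, had 0.535 and 0.475 in control and 0.511 and 0.499 in *Qk* cKO. The 27 nt exon of the receptor phosphatase gene *Ptprf* had 0.662 and 0.642 against 0.676 and 0.639, and the 18 nt exon of the kinesin gene *Kif1b* had 0.697 and 0.713 against 0.718 and 0.700. The embryos of the genotypes overlapped at these 3 exons. In 3 other events they did not overlap, although none was called. The 15 nt exon of *Itsn1* had 0.158 and 0.154 in control and 0.0843 and 0.139 in *Qk* cKO, the 24 nt exon of *Kif1a* 0.319 and 0.329 against 0.336 and 0.390, and the 21 nt exon of *Ptprz1* 0.475 and 0.495 against 0.499 and 0.539. These 6, with an 18 nt exon of *Macf1* and the 12 nt exon of *Zmynd8*, where the genotypes overlapped, are the 8 with the highest coverage of those not called and with an inclusion of 0.1 to 0.9 in control. For *Eif4g1* the 95% Wilson interval ran from 0.465 to 0.548 in control and from 0.461 to 0.547 in *Qk* cKO, which covers counting error only. Among all 282 microexons not called, 190 had a difference below 0.05 and 30 had one of at least 0.1.

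Called microexons were nearly all multiples of 3. Of the tested microexons 81.6% had a length divisible by 3 (271 of 332), and of the called ones 94.0% (47 of 50). This counts lengths, also of exons in non-coding transcripts such as *Rian*. The 3 other lengths were those of *Rps24* (20 nt), *Mfsd6* (25 nt) and *Dhx30*, an RNA helicase gene (29 nt). The annotation placed 41 of the 50 wholly in coding sequence. These 41 held no in-frame stop codon by the annotated frame. Annotated coding sequence holds none by definition, so this is no trait of the called exons. Lengths of 12 to 30 nt were all represented among multiples of 3, with 24 nt and 18 nt the most frequent among called events (9 each). Just inside the limit, 6 of 40 tested events of 28 to 30 nt were called, and just outside it 8 of 69 of 31 to 33 nt.

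**Figure D3:**
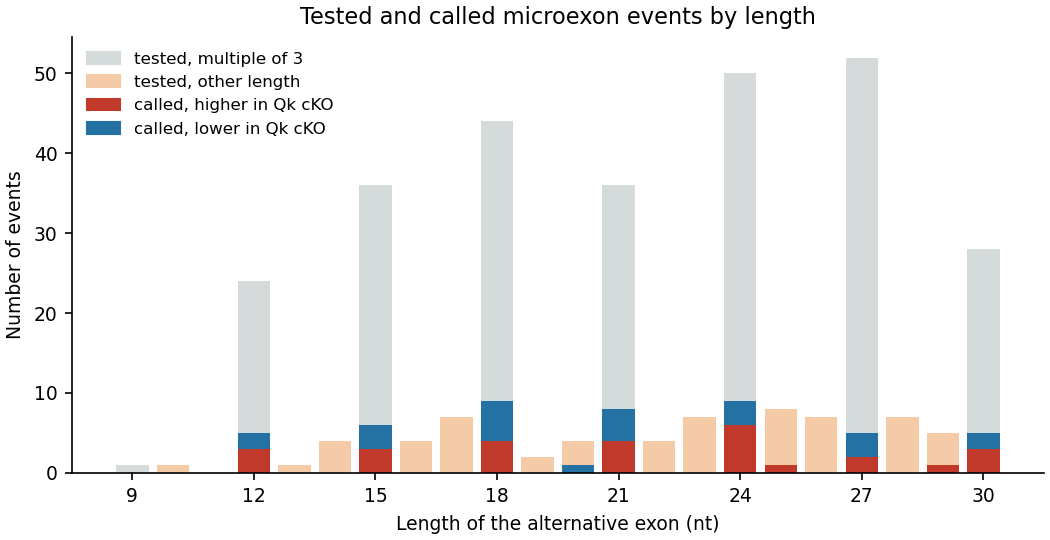
Number of tested microexon events (y axis) by exon length in nt (x axis), grey for multiples of 3 and orange for other lengths, with the called events overlaid in red (higher in *Qk* cKO) and blue (lower). The tested events gather at multiples of 3, and 47 of the 50 called events lie there.

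Higher and lower exons differed in where they started from and in the introns around them, described here without a test. The median inclusion in control was 0.339 for the 27 higher events, 0.678 for the 23 lower events and 0.453 for all tested microexons. The inclusion in control also sets the direction, and an exon near the floor or ceiling can move mainly away from it. The gap between these medians is therefore partly built in. The median upstream intron was 1056 nt for higher, 3094 nt for lower and 1676.5 nt for all tested events, and the median downstream intron was 1360, 1979 and 1548.5 nt. The exon sequence was found for 24 of the 27 higher and all 23 lower events. An exon ending in AG was found in 54.2% of the former and 87.0% of the latter, against 57.2% of the 313 tested events with a sequence, and the median GC content was 50.9%, 46.7% and 47.1%. Intron sequences were not analysed here.

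Coverage was higher for microexons than for other classes of cassette exons, and it moves with the called share. The median coverage was 93.4 tags for tested microexons, 69.5 for exons of 31 to 300 nt with a length divisible by 3 (frame-preserving) and 49.0 for those of other lengths in that range (frame-shifting). The shares called were 15.1%, 11.0% and 6.64%, and 7.64% for exons above 300 nt. With at least 150 tags, 20.7% of microexons were called (24 of 116), 17.1% of frame-preserving (97 of 567) and 11.9% of frame-shifting exons (35 of 293). Between 50 and 150 tags the first 2 shares were close, 12.0% and 11.2%, and below 50 tags they were 12.1% and 6.58%. The difference between classes was not tested.

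**Figure D4:**
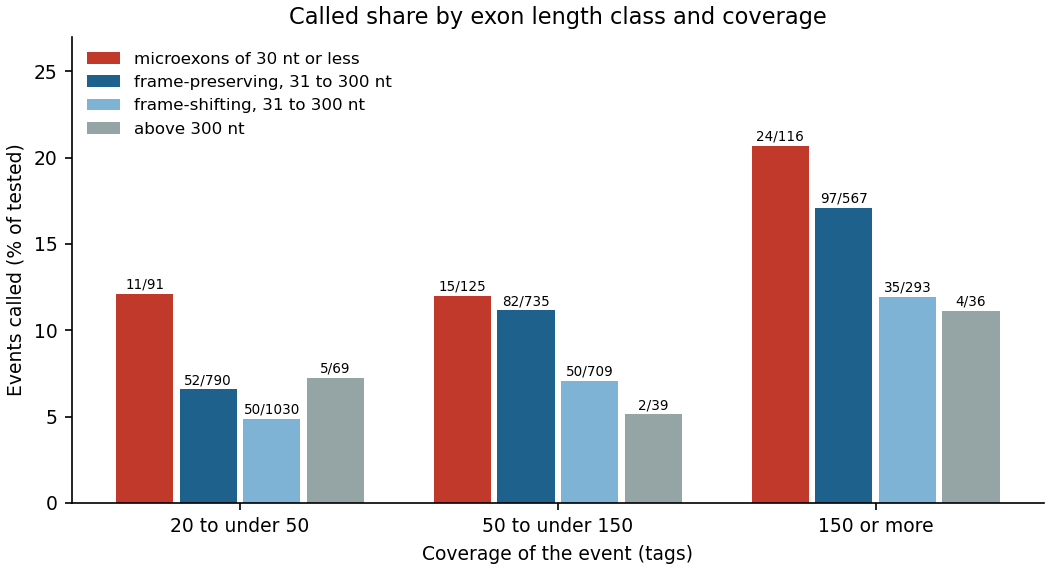
Share of tested cassette events called by Fisher's test (y axis, percent) in 3 bands of coverage (x axis, tags) for microexons and 3 other length classes. The fractions above the bars give called over tested events. Microexons have the highest bar in each band, but between 50 and 150 tags they stand close to frame-preserving exons, at 12.0% and 11.2%.

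The transcript levels of the genes that carry called microexons were compared in the same samples. Of 42 host genes, 0 were called at the gene level by edgeR's quasi-likelihood test or by DESeq2, where edgeR called 0.584% of all genes. At an unadjusted p below 0.05 there were 6, *Prom1*, *Slc12a7*, *Flna*, *Gpatch8* and *Nrcam* with log2 fold changes of 0.13 to 0.22 and *Nrxn2* with -0.14. Over the 42 the log2 fold change lay between -0.14 and 0.22 with a median of 0.03, against 0.00 (-0.0025) over all genes.

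Of the 37 splicing regulators examined, *Qk* alone was called, and its transcript level was higher in *Qk* cKO. Its level was 21.1 and 21.7 RPKM in control and 32.5 and 34.2 RPKM in *Qk* cKO, without overlap (log2 fold change 0.65 ± 0.06 SE, edgeR FDR 2.50e-05). The gene total counts transcripts that lack the deleted exon too. *Srrm4*, the activator of neuronal microexons, had 19.7 and 21.3 RPKM in control and 19.5 and 21.2 RPKM in *Qk* cKO, and the repressor gene *Ptbp1* had 77.3 and 71.1 against 74.8 and 74.9 RPKM. The log2 fold changes were 0.00 ± 0.06 (SE, *Srrm4*), -0.25 ± 0.11 (*Srrm3*), 0.02 ± 0.06 (*Ptbp1*) and 0.11 ± 0.08 (*Ptbp2*). They were 0.06 ± 0.07 for *Rbfox1*, 0.01 ± 0.08 for *Rbfox2* and -0.02 ± 0.08 for *Rbfox3*, and -0.24 ± 0.09 for *Nova1* and -0.12 ± 0.06 for *Nova2*. The 36 regulators other than *Qk* had an edgeR FDR of at least 0.212, and 5 of them had an unadjusted p below 0.05.

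**Figure D5:**
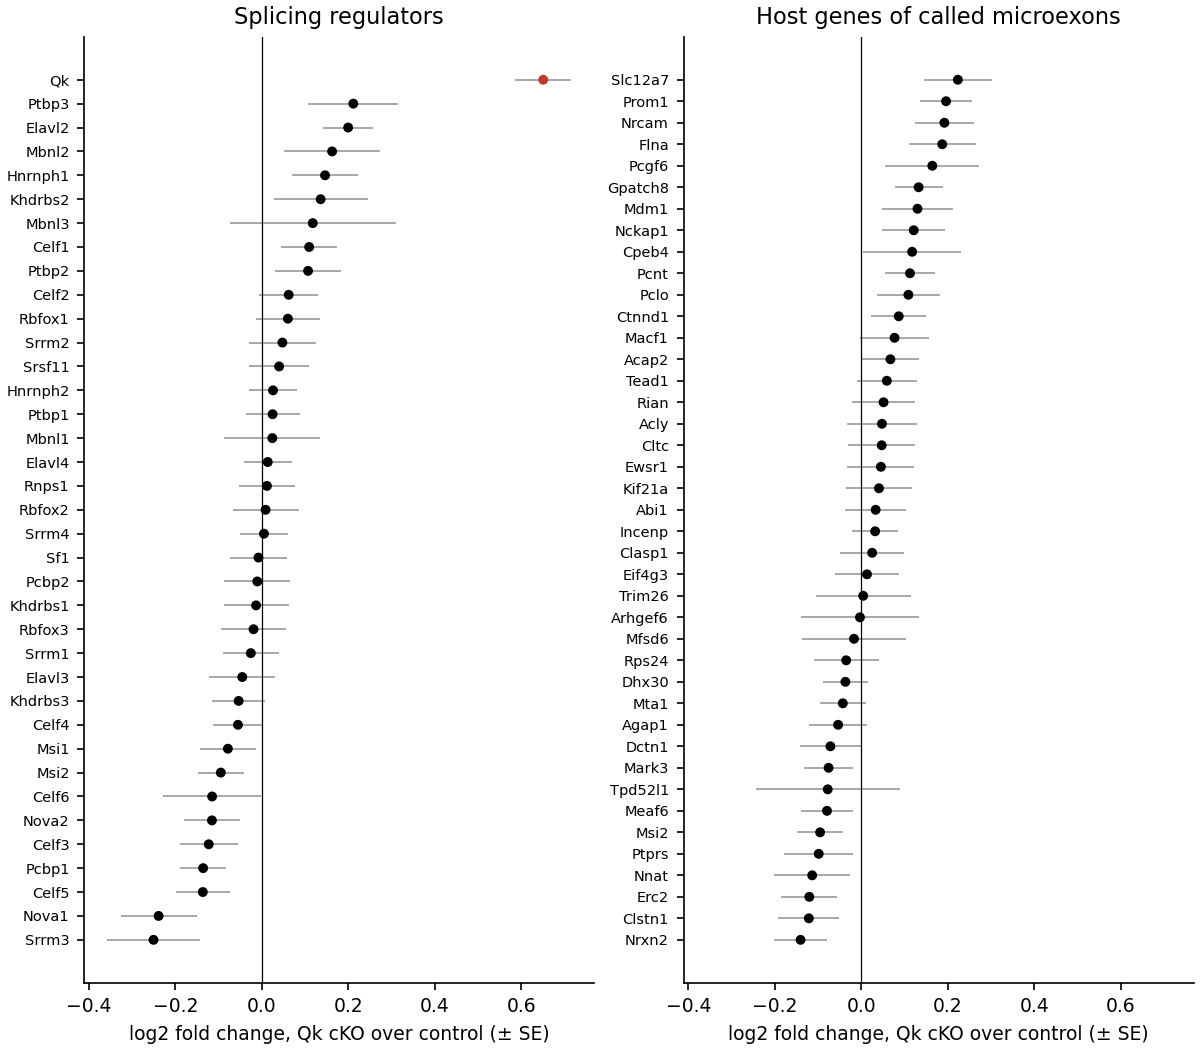
log2 fold change of transcript level, *Qk* cKO over control, with its SE (x axis), for the 37 splicing regulators (left) and for 41 of the 42 host genes of called microexons (right). Red marks a gene called by edgeR. *Qk* at 0.65 is the red point, and the host genes lie between -0.14 and 0.22.

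The samples hold between 37942046 and 42994832 tags on genes. Markers fixed for the cell types of the cortex were compared with the edgeR fit. Of 8 neuronal markers 0 were called and of 4 intermediate progenitor markers 0 (1 and 0 at an unadjusted p below 0.05). The markers of subpallium, endothelium, microglia and the oligodendrocyte lineage gave 0 calls too (2, 0, 0 and 1 at an unadjusted p below 0.05), and DESeq2 called 1 gene over all marker lists. The summed level of the neuronal markers was 1344.8 and 1383 RPKM in control and 1344.8 and 1279 RPKM in *Qk* cKO. Among 8 radial glia markers 2 were lower, *Fabp7* and *Slc1a3*, and their list summed to 1633 and 1512 RPKM in control and 1329 and 1267 RPKM in *Qk* cKO. *Fabp7* alone held 989 and 901 RPKM in control and 703 and 667 RPKM in *Qk* cKO, so the sum mostly follows this gene. The others were not called. Their log2 fold changes were 0.08 for *Pax6*, 0.08 for *Hes1* and 0.04 for *Nes*. They were -0.29 for *Sox2*, -0.19 for *Hes5* and -0.01 for *Vim*. Of 10 markers of hypothalamus and diencephalon 6 were lower. This list summed to 15.4 and 23.8 RPKM in control and 12.2 and 10.9 RPKM in *Qk* cKO, highest in control replicate 2, and no marker was at 0 in any sample. 1 of 3 erythroid markers found was higher, and their sum was 539.9 to 585.3 RPKM in control and 611.1 to 806.0 RPKM in *Qk* cKO. The part of these markers in the microexon results was not tested. Without control replicate 2, 38 microexons were called and 30 of them had a difference of at least 0.1.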

How the data were processed

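Messenger RNA of E14.5 cortices from 2 control and 2 *Qk* cKO embryos was selected by poly-A and sequenced as paired reads. The authors aligned the reads to mm10 with OLego and deposited, from Quantas, the estimated count of tags per gene, isoform and junction, and the RPKM of each gene. Estimated counts need not be whole and were rounded for the tests. Samples were grouped by their labels, and the other event types were not used.

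Microexons were all cassette events with an exon of at most 30 nt. The members and lists were chosen with earlier results of these data known. Fisher's exact test was run on isoform tags summed per genotype (scipy 1.17.1), with Benjamini-Hochberg adjustment over the cassette events with coverage of at least 20. The interaction of isoform and genotype and the gene levels (TMM scaling, genes with at least 1 tag) were tested with edgeR 4.0.16 (quasi-likelihood, R 4.3.3), with DESeq2 1.42.0 as an alternative. The scripts were tested on simulated data. Fisher's test and 95% Wilson intervals on tags cover counting error only. The edgeR p-values set the genotype effect against a variation estimated from 2 embryos per genotype and shared in part across features.

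Named exons were, with 1 event per exon, the 8 with the largest difference in each direction among those called with a difference of at least 0.1. Of the items so chosen, 1 is left unreported. Other called exons, and the known microexons that were not called, were named after their values were seen. The *Qk* transcript and 9 other regulators were named whatever their result. Exon positions and sequences came from GENCODE release M21 (GRCm38, the build of mm10), counted from 1, and sequences were found for 47 of the 50 called events. Of the listed markers, 1 erythroid gene was not found in the deposited tables.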

Additional observations from a re-analysis of the deposited data

How the results depend on the processing

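Called microexons numbered 39 with junction tags in place of isoform tags, 51 and 40 with coverage of at least 10 and 50, 48 with 1 event per exon, 44 for exons of at most 27 nt and 112 for exons of at most 51 nt. With the edgeR interaction test they numbered 14, of which 11 differed by at least 0.1. Of those with a difference of at least 0.1, 74 were called at up to 51 nt, 32 with the mean of the replicates and 11 at a difference of at least 0.2. The larger counts at 51 nt come from more events being tested. With each embryo left out in turn, between 33 and 39 events were called, and between 21 and 30 with a difference of at least 0.1. The lowest values, 33 and 21, were without control replicate 1.

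Of the 33 differences of at least 0.1, 14 were called with every embryo left out in turn and 19 lost the call at least once. Without control replicate 1, the call was lost for *Arhgef6*, *Pcgf6*, *Pclo*, *Trim26*, *Prom1* 27 nt, *Erc2* and *Mark3*. The same embryo left out cost the call of *Cpeb4*, *Nrcam* 18 nt, *Mta1*, *Msi2*, *Ptprs*, *Eif4g3* and both of *Dctn1*. *Mfsd6*, whose difference turned negative, lost the call there too. Without control replicate 2, 9 lost it (*Arhgef6*, *Tpd52l1*, *Pclo*, *Erc2*, *Gpatch8*, *Cpeb4*, *Slc12a7* and both of *Dctn1*). Without *Qk* cKO replicate 1, 8 lost it (*Arhgef6*, *Tpd52l1*, *Pcgf6*, *Trim26*, *Erc2*, *Cpeb4*, *Nrcam* 18 nt and *Msi2*). Without *Qk* cKO replicate 2, 10 lost it (*Tpd52l1*, *Pclo*, *Prom1* 27 nt, *Cpeb4*, *Nrcam* 18 nt, *Mta1*, *Ptprs*, *Eif4g3*, *Dctn1* 18 nt and *Mfsd6*). Leaving an embryo out also removes tags. An event can then fall below the coverage limit and lose its call while its difference hardly changes. Both *Dctn1* events had a coverage of only 22.1. Their differences stayed at 0.135 to 0.153 (21 nt) and 0.177 to 0.206 (18 nt). *Pclo*, with a coverage of 33.1, stayed at -0.165 to -0.147. Such losses were not counted apart from those where the difference shrank, as in *Mta1* (0.013 to 0.179). With isoform tags in place of junction tags, 5 differences moved by more than the spread between embryos, and those of *Dctn1* fell below 0.1. The difference of *Mfsd6* lay between -0.043 and 0.416 with embryos left out, the negative value being that without control replicate 1, and the cause was not tested. All other differences kept their direction under every alternative tried for them.

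The replicate numbers as a block gave 52 called microexons (Cochran-Mantel-Haenszel test), 35 with a difference of at least 0.1, 1 regulator, 0 host genes and 8 marker genes. Deviations of samples with the same number correlated at -0.00977 over events and 0.384 over genes, and the labels do not say that a number marks a litter, so the numbers were not taken to pair the samples.

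Of the splicing regulators, between 0 and 1 were called with embryos left out (0 without control replicate 2), and 0 host genes were called under every alternative. Of the 9 marker genes called, 1 was called with DESeq2 and 1 with edgeR's filterByExpr, and between 0 and 10 with embryos left out (3 without control replicate 1, 0 without control replicate 2). The cause was not tested. Events with few tags, such as *Arhgef6*, are limited by depth.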

Other observations

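Further called microexons lay outside the gene groups described and changed by less than 0.1. The imprinted genes *Nnat*, which encodes a small membrane protein, and *Rian*, a long non-coding RNA, had higher inclusion of a 27 nt and a 15 nt exon. *Nnat* went from 0.628 and 0.617 in control to 0.664 and 0.647 in *Qk* cKO, and *Rian* from 0.201 and 0.199 to 0.252 and 0.238 (Fisher FDR 0.000751 and 0.0179, edgeR interaction FDR 0.773 and 0.630). For *Nnat* the upstream junction had 4159 and 4377 tags in control and 4972 and 3681 in *Qk* cKO. The downstream junction had only 25.1 and 43 against 30.1 and 31.4. The 29 nt exon of *Dhx30*, whose length is not a multiple of 3, went from 0.0563 and 0.0636 to 0.143 and 0.118 (Fisher FDR 0.0522, edgeR interaction FDR 0.412). In none of these 3 exons did the embryos of the genotypes overlap.

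The RNA-binding protein gene *Ewsr1* had lower inclusion of overlapping 18 nt and 15 nt exons that end at the same base. Their inclusion was 0.0377 and 0.0503 in control and 0.0267 and 0.0260 in *Qk* cKO for the longer exon, and 0.0208 and 0.0273 against 0.0158 and 0.0173 for the shorter. The 30 nt exon of *Meaf6*, a subunit gene of histone acetyltransferase complexes, went from 0.825 and 0.839 to 0.724 and 0.759. The overlapping *Ewsr1* exons have identical isoform tags and were a single test. *Ewsr1* and *Meaf6* were called by Fisher's test (FDR 0.000751 and 0.00837) and not by the edgeR interaction test (FDR 0.238 and 0.353).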
